A study of Mus musculus with 6 samples.

Results

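The genes described here encode the mitochondrial respiratory chain and ATP synthase, the machinery that turns the oxidation of fuels into ATP. They were taken from the deposited expression table by name. Every row beginning mt-, Nduf, Uqcr, Atp5, Cox4, Cox5, Cox6, Cox7 or Cox8 was included, together with Sdha, Sdhb, Sdhc, Sdhd, Cycs and Cyc1. Cox6a2 and processed pseudogenes were left out. This gave 130 of the 23067 genes in the table. Mitochondrial DNA encodes 37 of them, namely 13 mRNA, 2 rRNA and 22 tRNA genes. The other 93 are nuclear, comprising 83 subunits, 8 complex I assembly factors and 2 genes that share a name prefix without being subunits, Atp5s and Atp5sl. RNA was sequenced in bulk from the dorsal striatum of postnatal day 21 mice, in 3 libraries from homozygous Lrrk2 knock-in mice (genotype Lrrk2G2019S/G2019S) and 3 from wild-type mice, all titled male. The knock-in places a change linked to Parkinson's disease in the mouse's own gene for the kinase Lrrk2, and the labels list no transgene or drug. The strain is not given in the sources used here, and the labels do not state that each sample is its own animal. Tests therefore rest on sample-to-sample spread that could be technical.

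Complexes I to IV pass electrons from NADH and succinate to oxygen and, apart from complex II, pump protons across the inner membrane, and complex V uses the returning protons to make ATP. Complexes I, III, IV and V are built from proteins of both genomes, whereas complex II is entirely nuclear. Mitochondrial DNA is transcribed from each strand as long precursors that are cut at the tRNAs lying between the genes, while nuclear subunit genes are transcribed singly and many respond to the factor NRF1. Striatal projection neurons depend heavily on this pathway, and Parkinson's disease has long been associated with complex I.

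The levels used are FPKM, fragment counts scaled to transcript length and library size. Comparisons between different genes therefore depend on the transcript lengths that the annotation gives. FPKM holds no read counts, so depth is unknown. Library correlations over genes ranged from 0.983 to 0.990 and between 13999 and 14191 genes reached 1 FPKM. Lrrk2 itself was at 12.1, 11.3 and 12.4 FPKM in the knock-in libraries and at 10.9, 12.02 and 10.996 FPKM in the wild-type libraries, a level that cannot show a single-codon change. Xist, the X-inactivation RNA of female cells, was at 30.8, 27.2 and 39.3 FPKM in knock-in and at 31.4, 33.0 and 31.6 FPKM in wild type, and 0 of 4 Y-linked genes looked for were in the table. All 6 libraries therefore go against the titled sex, and no result can be given without them. All 11 striatal projection neuron markers were in the table, and Drd1 was at 73.6, 74.6 and 92.6 FPKM in knock-in and at 75.9, 75.9 and 81.2 FPKM in wild type. Markers of cortical excitatory neurons, which the striatum should hold few of, varied between libraries, with a mean log2(FPKM + 1) over the 8 tested of 12 genes of 2.498, 2.23 and 1.27 in knock-in replicates 1 to 3 and 1.75, 1.30 and 1.26 in wild-type replicates 1 to 3. Ttr, a choroid plexus marker, was at 2.12 to 13.5 FPKM in knock-in and at 16.2, 374 and 11.8 FPKM in wild type.

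The comparison of genotypes found 0 of the 128 tested respiratory chain genes changed at an adjusted p under 0.05 (limma on log2(FPKM + 1), two-sided, Benjamini-Hochberg over all genes). Over all 14156 genes tested, 3 were called, or 0.0212%. Cox7b2 and Cox8b averaged under 1 FPKM and were not tested. At an unadjusted p under 0.05 there were 4 respiratory chain genes higher in knock-in, mt-Nd3, mt-Ts1, mt-Te and mt-Tg, and 1 lower, Ndufaf1, or 5 of 128, beside 4.27% of all genes tested, 1.25% higher and 3.02% lower. The libraries of the genotypes did not overlap for mt-Nd3, mt-Ts1 and mt-Te, all higher in knock-in, and for Ndufaf1, lower in knock-in. Among all genes tested 2.92% were higher and 6.58% lower without overlap. All 4 genes that were higher at that p are among the 37 mt- genes, and the higher and lower counts of members were not set against the background with a test.

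The genotype averages of the mitochondrial and nuclear genes differed in size. The 13 mitochondrial mRNAs had a median log2 difference, knock-in minus wild-type, of 0.16 and all 13 were above 0. Quantile normalization fixes the values of the highest ranks, and it set mt-Co1, mt-Co2 and mt-Cytb, each at the same rank in all 6 libraries, to a difference of 0 by construction. Under it 8 of the other 10 mRNAs lay above 0, mt-Co3 and mt-Nd4l lay below, and the median of the 13 was 0.03. The 81 tested nuclear subunits had a median of 0.03 and 62 were above 0, a count that ran from 53 to 71 over the scalings tried. All genes tested had a median of -0.01 and 43.6% lay above 0. Less RNA per cell and fewer cells of a type cannot be told apart in bulk tissue. Both medians depended on single libraries. Without knock-in replicate 3 the mitochondrial median was 0.04, with 10 of 13 above 0, and without knock-in replicate 2 the nuclear median was -0.05, with 19 of 81 above 0. With each of the 6 libraries left out in turn the nuclear median ran from -0.05 to 0.09.

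**Figure D1:**
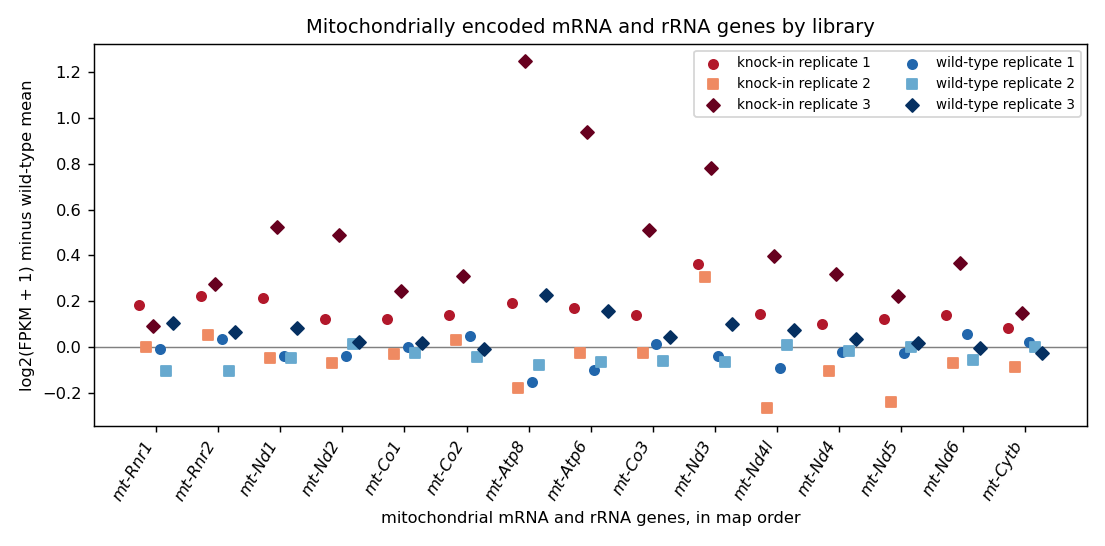
The plot shows, for the 2 rRNA and 13 mRNA genes of mitochondrial DNA in map order, each library's log2(FPKM + 1) minus the wild-type mean; reds are the 3 knock-in libraries and blues the 3 wild-type libraries. Knock-in replicate 3 was the highest of the 6 libraries for all 13 mRNAs, and only for mt-Nd3 did all 3 knock-in libraries lie above all 3 wild-type libraries.

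Mitochondrial DNA gives 7 subunits to complex I, all parts of its proton-pumping membrane arm. mt-Nd3, one of the smallest of them, was the member with the smallest unadjusted p. Its levels were 768, 739 and 1026 FPKM in the knock-in libraries and 582, 571 and 641 FPKM in the wild-type libraries. All 3 knock-in libraries were higher than all 3 wild-type libraries, knock-in replicate 3 by the widest margin. Means were 844 ± 158 FPKM in knock-in and 598 ± 37.2 FPKM in wild type (SD, n = 3 each), a log2 difference of 0.48 with a standard error of 0.13 (limma unadjusted p = 0.0072, adjusted p = 0.997). The gene lies on the plus strand of mitochondrial DNA at chrM:9459-9806 (GRCm38, GENCODE M21). Its first 120 bases, chrM:9459-9578, are shown because nearly the same letters also stand in a gene annotated on chromosome 1, described further on. The capital marks the base that differs in that copy.
mt-Nd3: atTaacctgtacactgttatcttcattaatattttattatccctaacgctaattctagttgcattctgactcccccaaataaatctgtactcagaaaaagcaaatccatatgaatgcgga

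The other complex I genes of mitochondrial DNA were closer between the genotypes. mt-Nd1, at the junction of the membrane arm with the quinone site, was at 4931, 4119 and 6100 FPKM in knock-in and at 4138, 4115 and 4503 FPKM in wild type. mt-Nd2, a proton-pumping subunit, was at 2641, 2310 and 3398 FPKM in knock-in and at 2361, 2444 and 2461 FPKM in wild type. In both, knock-in replicate 3 was the highest library and knock-in replicate 2 lay at or near the bottom, so the groups overlapped. mt-Nd4l was at 1553, 1167 and 1849 FPKM in knock-in and at 1319, 1412 and 1479 FPKM in wild type, with the knock-in libraries on both sides of the wild-type range. mt-Nd4, at 3614 ± 530 FPKM in knock-in and 3335 ± 77.5 FPKM in wild type, and mt-Nd5, at 1748 ± 281.5 FPKM in knock-in and 1689 ± 25.96 FPKM in wild type, are the large antiporter-like subunits. mt-Nd6, the sole mRNA of the minus strand, averaged 2312 ± 348 FPKM in knock-in and 2074 ± 81.3 FPKM in wild type (SD, n = 3 each in these sentences). The log2 differences of these 6 genes ran from 0.04 for mt-Nd5 to 0.23 for mt-Nd1, none at an unadjusted p under 0.05. Under quantile normalization mt-Nd4l turned to -0.01.

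mt-Cytb, the electron-carrying cytochrome b of complex III, had the smallest excess in knock-in replicate 3 among the 13 mRNAs, at 1.11 times the mean of the other 5 libraries. Its levels were 9347, 8321 and 9768 FPKM in knock-in and 8964, 8813 and 8669 FPKM in wild type, with the wild-type libraries inside the knock-in range and a log2 difference of 0.05. For complex IV, mt-Co1, which holds the oxygen-reducing site, was the most abundant mRNA of all 130 genes. It averaged 13541 ± 1289 FPKM in knock-in and 12484 ± 189 FPKM in wild type. mt-Co2, which accepts electrons from cytochrome c, averaged 7375 ± 721 FPKM in knock-in and 6572 ± 214 FPKM in wild type. mt-Co3, a structural core subunit, averaged 5975 ± 1167 FPKM in knock-in and 5110 ± 188 FPKM in wild type (SD, n = 3 each). The log2 differences of mt-Co1, mt-Co2 and mt-Co3 were 0.11, 0.16 and 0.21, and under quantile normalization mt-Co3 turned to -0.05.

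Among the mRNAs, those of complex V showed the largest excess in knock-in replicate 3. mt-Atp8, a small membrane subunit, was at 2006, 1551 and 4152 FPKM in knock-in and at 1580, 1659 and 2050 FPKM in wild type. mt-Atp6, the proton-channel subunit, was at 907, 791 and 1540 FPKM in knock-in and at 753, 771 and 899 FPKM in wild type. Knock-in replicate 3 stood far above the rest for both genes, while the other knock-in libraries lay within or next to the wild-type range. Relative to the mean of the other 5 libraries, knock-in replicate 3 was at 2.35 times for mt-Atp8 and 1.87 times for mt-Atp6. The genotype log2 differences were 0.42 with a standard error of 0.37 and 0.36 with a standard error of 0.25. Both genes are made as a single transcript and their reading frames overlap at chrM:7927-7969. The stretch is shown because fragments from it belong to both genes.
mt-Atp8 and mt-Atp6 overlap: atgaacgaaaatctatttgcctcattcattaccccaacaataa

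The mitochondrial rRNAs followed the mRNAs only in part. mt-Rnr1, the rRNA of the small mitochondrial ribosome subunit, was at 4160, 3667 and 3906 FPKM in knock-in and at 3652, 3413 and 3951 FPKM in wild type. mt-Rnr2, that of the large subunit, was at 2965, 2635 and 3079 FPKM in knock-in and at 2604, 2363 and 2663 FPKM in wild type. Knock-in replicate 3 was at 1.04 and 1.16 times the mean of the other 5 libraries for these 2 genes. Their log2 differences were 0.09 and 0.18, and under quantile normalization they were -0.14 and -0.05. The method that selected RNA before sequencing is not given in the sources used here, and rRNA levels depend on it.

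Mitochondrial tRNA genes are 59 to 75 bases long, shorter than a usual sequencing fragment, so their FPKM may hold fragments of the precursors, and mature tRNA and precursor cannot be told apart. Of the 22, 17 lay above 0 with a median log2 difference of 0.22, and knock-in replicate 3 was the highest library for 15. The 4 tRNA genes that sit side by side on the minus strand between mt-Nd2 and mt-Co1 carried the 3 largest ratios of knock-in replicate 3 to the other libraries, and the only other tRNA above 3 was mt-Tl2, at 3.11 times and under 9 FPKM in every library. The cluster's sequences are shown 5′ to 3′ on their own strand (GRCm38, GENCODE M21) with the anticodon in capitals, at chrM:5018-5086, chrM:5089-5159, chrM:5192-5257 and chrM:5260-5326 in the order given.
mt-Ta: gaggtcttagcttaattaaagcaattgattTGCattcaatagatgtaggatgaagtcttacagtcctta
mt-Tn: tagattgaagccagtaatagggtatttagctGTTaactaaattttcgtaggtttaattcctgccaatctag
mt-Tc: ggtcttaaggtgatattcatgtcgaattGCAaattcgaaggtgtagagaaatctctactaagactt
mt-Ty: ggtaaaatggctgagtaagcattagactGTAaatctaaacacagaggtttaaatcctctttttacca

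mt-Tn, the asparagine tRNA, was at 58.1, 33.0 and 215 FPKM in knock-in and at 26.9, 27.1 and 58.7 FPKM in wild type. mt-Tc, the cysteine tRNA, was at 88.6, 44.8 and 268 FPKM in knock-in and at 36.1, 44.0 and 76.9 FPKM in wild type. mt-Ta, the alanine tRNA, was at 67.1, 49.8 and 191 FPKM in knock-in and at 41.1, 42.8 and 59.5 FPKM in wild type. In all 3, and in mt-Ty for tyrosine, knock-in replicate 3 was the highest library, at 5.29 times the mean of the other 5 for mt-Tn, 4.61 for mt-Tc, 3.67 for mt-Ta and 2.70 for mt-Ty, and the genotypes overlapped. Their standard errors were wide, with a log2 difference of 1.07 and a standard error of 0.77 for mt-Tn. The levels were also uneven within wild type, where replicate 3 was the highest of the 3 libraries for all 4 genes. The precursor of the plus strand also crosses these positions, and the strand setting used in counting is not given in the sources used here, so fragments of the opposite strand cannot be told apart from these tRNAs.

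mt-Ts1, a serine tRNA of the minus strand at the end of mt-Co1, differed from that cluster, with the same limit on strand. Its levels were 1237, 1292 and 1223 FPKM in knock-in and 1135, 1057 and 969 FPKM in wild type. The 3 knock-in libraries lay close together and above all wild-type libraries, and knock-in replicate 3 was the lowest of them. The log2 difference was 0.25 with a standard error of 0.08 (limma unadjusted p = 0.019, adjusted p = 0.997). mt-Te, the glutamate tRNA beside mt-Nd6, was at 469, 425 and 606 FPKM in knock-in and at 387, 360 and 405 FPKM in wild type, again without overlap, with a log2 difference of 0.37 (limma unadjusted p = 0.026, adjusted p = 0.997). The glycine tRNA mt-Tg was under 8 FPKM in every library and its groups overlapped.

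**Figure D2:**
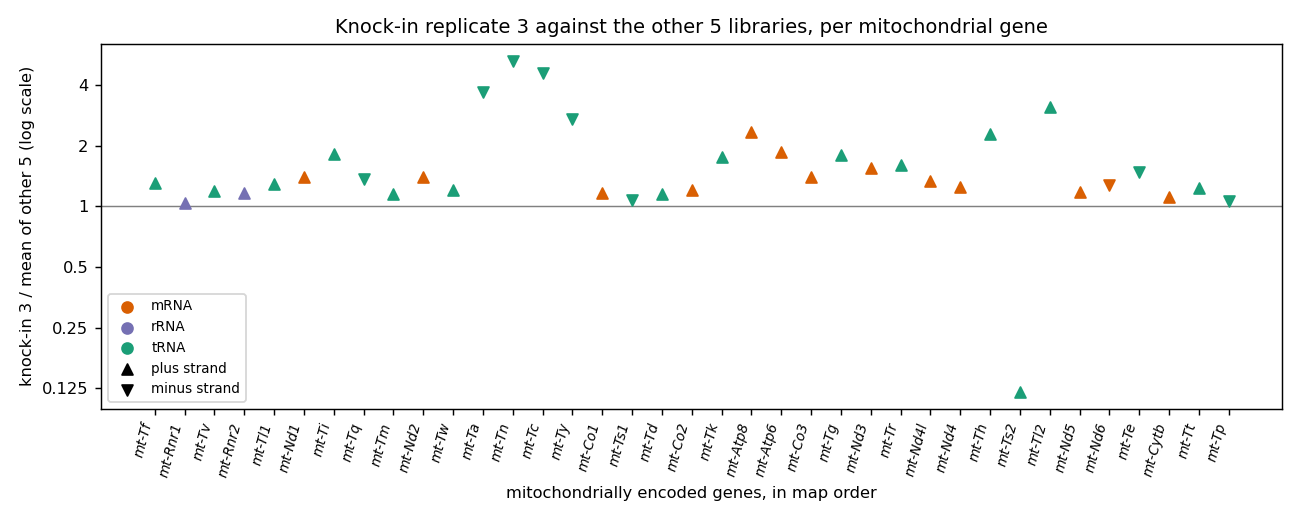
The plot gives, for all 37 genes of mitochondrial DNA in map order, the level of knock-in replicate 3 divided by the mean of the other 5 libraries on a log axis; colours mark mRNA, rRNA and tRNA and the triangles point up for the plus and down for the minus strand. The 4 minus-strand tRNAs from mt-Ta to mt-Ty stood at 2.70 to 5.29, mt-Atp8 at 2.35 and mt-Rnr1 at 1.04, and mt-Ts2, a tRNA under 4 FPKM in every library, at 0.120.

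Some of these levels are shared with genes that GENCODE places on nuclear chromosomes, called copies here because they share sequence with the mitochondrial genes. Of the 13 mRNAs, 7 shared at least 20% of their 50-base windows with another gene, and 9 such copies were in the table, 7 on chromosome 1 and 2 on chromosome 2. Gm28438 matched mt-Nd3 in 344 of 345 aligned bases and was listed at 781, 755 and 1049 FPKM in knock-in and at 593, 583 and 654 FPKM in wild type. Its level was 1.02 times that of mt-Nd3 in every library. The copies of mt-Co2 (Gm28661), mt-Co3 (Gm28437) and mt-Nd4l (Gm10222) were identical to them over their whole length and stood at 1.00 to 1.01 times their levels. Gm10925, an identical copy of all but the last bases of mt-Atp6, was listed at 4791, 4385 and 7395 FPKM in knock-in and at 4338, 4242 and 4831 FPKM in wild type, 4.80 to 5.76 times the level of mt-Atp6. Fragments from such sequences cannot be assigned to either gene by their letters, so levels of these 7 mRNAs are uncertain. The 9 copies held 9.82%, 9.03% and 11.6% of all FPKM in knock-in and 9.32%, 9.11% and 9.41% in wild type. With each copy's FPKM scaled by its length over the gene's length and added to the gene, the mitochondrial median was again 0.16. This alternative was chosen after seeing the data. The 6 mRNAs without a copy, mt-Atp8 among them, had a median log2 difference of 0.16 as well.

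**Figure D3:**
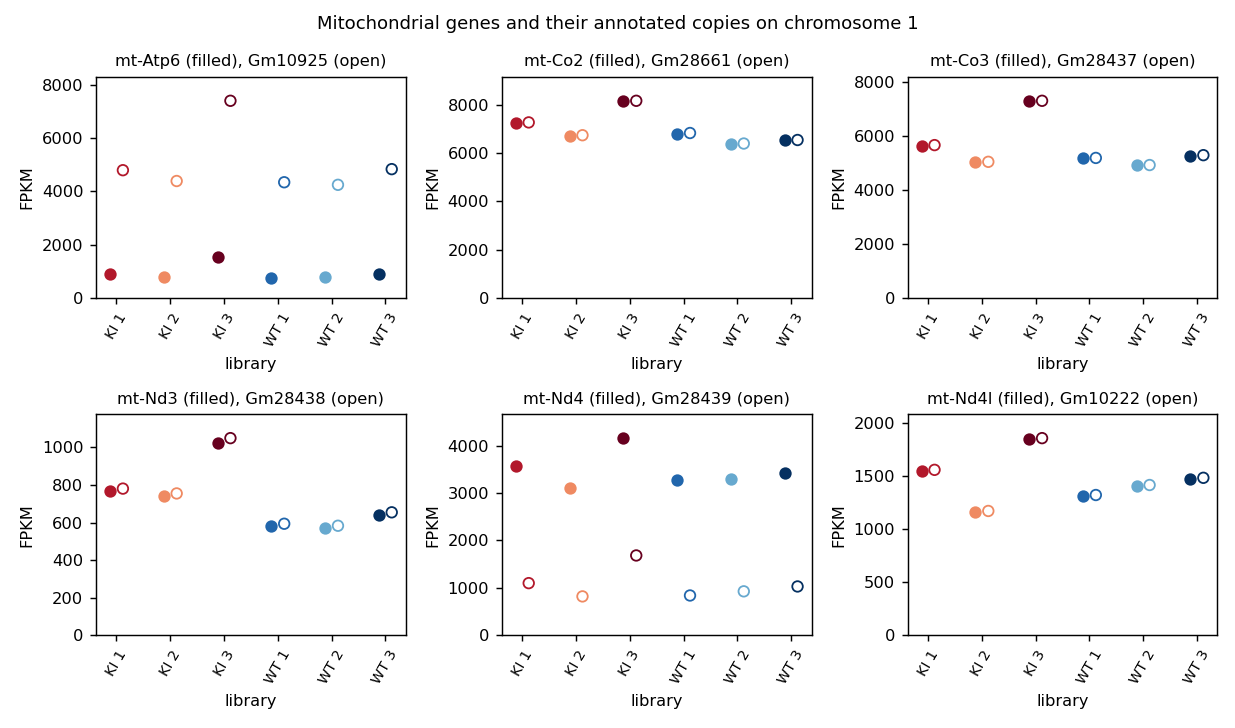
Each panel shows the FPKM of a mitochondrial gene (filled) and of its copy on chromosome 1 (open) in the 3 knock-in (KI, red) and 3 wild-type (WT, blue) libraries. The copies of mt-Co2, mt-Co3, mt-Nd3 and mt-Nd4l lie almost on top of their genes, Gm10925 lies at 4.80 to 5.76 times mt-Atp6, and Gm28439 lies at 0.255 to 0.405 times mt-Nd4.

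Ndufa4 and Ndufa4l2 were counted with complex IV, where their proteins belong. Nuclear subunits of complex I showed no called gene among 36, and 28 lay above 0 with a median log2 difference of 0.03. The catalytic core, which carries the flavin and iron-sulfur clusters, stood at similar levels in the genotypes. Ndufs1, its largest iron-sulfur subunit, averaged 17.0 ± 0.947 FPKM in knock-in and 16.9 ± 0.547 FPKM in wild type. Ndufv1, the flavin subunit where NADH is oxidized, averaged 35.3 ± 3.31 FPKM in knock-in and 34.2 ± 1.47 FPKM in wild type. Ndufs7, which holds the last cluster before quinone, averaged 41.4 ± 4.93 FPKM in knock-in and 38.7 ± 1.06 FPKM in wild type (SD, n = 3 each in these sentences). The accessory subunits with the smallest p were Ndufb5, Ndufa5 and Ndufa1. Ndufb5 was at 13.4, 14.97 and 12.9 FPKM in knock-in and at 13.4, 11.8 and 12.2 FPKM in wild type, overlapping. Its log2 difference was 0.13 with a standard error of 0.08. Levels of the nuclear subunits of complex I spread from 6.43 FPKM for Ndufab1, the acyl carrier protein, to 257 FPKM for Ndufb9, a spread of 39.97-fold. In GENCODE M21 the annotated exons cover 6883 bases for Ndufab1 and 1031 bases for Ndufb9. The part of annotated length in this spread was not tested.

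Complex II, succinate dehydrogenase, has 4 subunits, all nuclear, and its median log2 difference, -0.001, was the nearest to 0 of the 5 complexes. Sdha, the flavin subunit that oxidizes succinate, was at 79.5, 82.3 and 81.7 FPKM in knock-in and at 83.1, 79.6 and 80.7 FPKM in wild type. The libraries were interleaved and within a few percent of each other, including knock-in replicates 2 and 3. Sdhd, a membrane anchor, averaged 67.8 ± 4.75 FPKM in knock-in and 65.1 ± 3.62 FPKM in wild type (SD, n = 3 each).

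In complex III, 7 of 9 nuclear subunits lay above 0 with a median of 0.02. Uqcrfs1, the Rieske iron-sulfur protein, averaged 72.5 ± 5.72 FPKM in knock-in and 69.7 ± 1.58 FPKM in wild type. Cyc1, cytochrome c1, was at 103, 116 and 93.0 FPKM in knock-in and at 105, 105 and 97.2 FPKM in wild type. The knock-in libraries lay at both ends of the range. Uqcr10, a small accessory subunit with the smallest p of the complex, averaged 169 ± 19.5 FPKM in knock-in and 152 ± 25.9 FPKM in wild type (SD, n = 3 each). Cycs is the soluble cytochrome c that links complexes III and IV. Its levels were 24.8, 28.5 and 27.4 FPKM in knock-in and 25.2, 25.96 and 24.2 FPKM in wild type, overlapping. Of the 50-base windows of Cycs 28.5% also occur in other genes, and the same held at more than 20% for Ndufs3, Ndufb4, Ndufs5, Cox5b, Cox7c and Atp5h, so their levels are uncertain.

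In complex IV, 12 of 16 tested nuclear subunits lay above 0 with a median of 0.03, and the complex held both the highest and the lowest nuclear member. Cox8a, a small membrane subunit, was at 777, 770 and 596 FPKM in knock-in and at 760, 755 and 664 FPKM in wild type. Knock-in replicate 3 was the lowest library. Cox6c, a small accessory subunit, was at 38.9, 56.4 and 34.5 FPKM in knock-in and at 38.2, 35.4 and 36.4 FPKM in wild type. Knock-in replicate 2 alone stood apart, at 1.54 times the mean of the other 5 libraries, and knock-in replicate 3 was again the lowest. Cox4i1, the regulatory subunit that binds ATP, was at 185, 179 and 140 FPKM in knock-in and at 163, 146 and 155 FPKM in wild type, with knock-in libraries both above and below all wild-type libraries.

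Where a subunit has tissue isoforms, the same isoform dominated in both genotypes. Cox4i2, known for lung and low oxygen, made up 1.495% ± 0.294 of Cox4 FPKM in knock-in and 1.48% ± 0.260 in wild type. Cox7a1, the heart and muscle form, made up 1.04% ± 0.138 of Cox7a1 plus Cox7a2 in knock-in and 1.06% ± 0.107 in wild type. Cox6b2, the testis form, made up 0.362% ± 0.121 of Cox6b in knock-in and 0.312% ± 0.0255 in wild type. Ndufa4l2, a low-oxygen relative of the complex IV subunit Ndufa4, made up 3.35% ± 0.191 of the pair in knock-in and 3.27% ± 0.122 in wild type. Atp5g1, Atp5g2 and Atp5g3 encode the same mature c-ring protein of complex V, and Atp5g3 gave 55.7% ± 1.63 of their FPKM in knock-in and 54.6% ± 0.807 in wild type (SD, n = 3 each in these sentences). Each of these differences was smaller than the larger of the 2 SDs. Annotated exons cover 4912, 1675 and 2181 bases for Atp5g1, Atp5g2 and Atp5g3 (GENCODE M21), and shares between genes depend on such lengths.

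In complex V, 12 of 15 nuclear subunits lay above 0 with a median of 0.02. Atp5b, the catalytic beta subunit and the highest nuclear gene of the complex, was at 223, 251 and 216 FPKM in knock-in and at 230, 227 and 220 FPKM in wild type. Atp5d, the delta subunit of the rotor stalk, averaged 87.8 ± 12.9 FPKM in knock-in and 82.2 ± 5.84 FPKM in wild type. Atp5g3 averaged 81.9 ± 7.58 FPKM in knock-in and 76.9 ± 1.23 FPKM in wild type (SD, n = 3 each). In each of the 3 genes knock-in replicate 2 was the highest library.

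Among the 8 complex I assembly factors, chaperones that are not part of the finished enzyme, 5 lay above 0 and 3 below. Ndufaf1, which helps to build the membrane arm, was at 8.80, 8.72 and 8.39 FPKM in knock-in and at 10.2, 9.29 and 10.1 FPKM in wild type. All knock-in libraries were lower than all wild-type libraries, with a log2 difference of -0.17 and a standard error of 0.06 (limma unadjusted p = 0.022, adjusted p = 0.997).

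**Figure D4:**
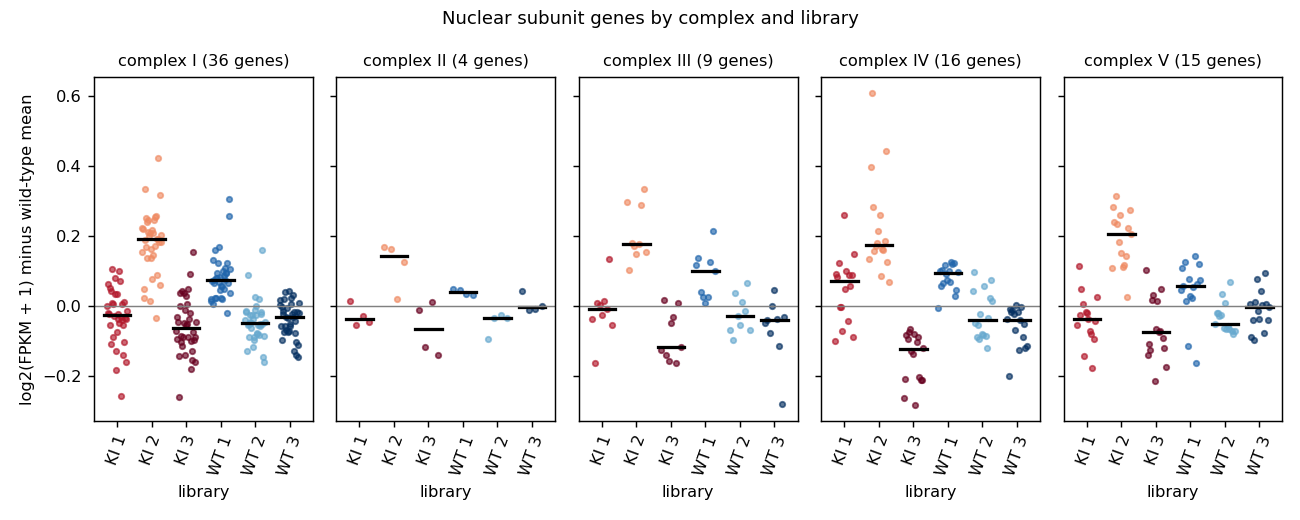
Each point is a tested nuclear subunit gene in a library, as log2(FPKM + 1) minus the wild-type mean, by complex, for the 3 knock-in (KI) and then the 3 wild-type (WT) libraries; black bars are medians, and Cycs is not shown. Knock-in replicate 2 was above 0 for nearly every gene of all 5 complexes, with a median of 0.19 in complex I, and knock-in replicate 3 had the lowest median in all 5 complexes, -0.12 in complex IV.

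The library pattern of the nuclear genes ran opposite to that of the mitochondrial genes within knock-in. Knock-in replicate 2 was the highest of the 6 libraries for 69 of 81 nuclear subunits, beside 24.7% of all genes tested, and the lowest for 8 of 13 mitochondrial mRNAs, beside 17.0%. Knock-in replicate 3 was the highest for 13 of 13 mitochondrial mRNAs, beside 17.6%, and the lowest for 46 of 81 nuclear subunits, beside 32.0%. As medians relative to the wild-type mean, the mitochondrial mRNAs were at 0.14, -0.07 and 0.40 in knock-in replicates 1 to 3 and at -0.02, -0.04 and 0.04 in wild-type replicates 1 to 3. The nuclear subunits were at -0.02, 0.18 and -0.09 in knock-in and at 0.07, -0.05 and -0.03 in wild type. The wild-type libraries stayed within a narrow band for the mitochondrial genes, and the 3 knock-in libraries spread on both sides of it.

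The summed level of the 13 mitochondrial mRNAs was 56347, 49472 and 66862 FPKM in knock-in and 51260, 50342 and 52373 FPKM in wild type. That of the 83 nuclear subunits was 6881, 7793 and 6357 FPKM in knock-in and 7250, 6696 and 6618 FPKM in wild type. Their ratio was 8.19, 6.35 and 10.5 in knock-in and 7.07, 7.52 and 7.91 in wild type. The lowest and the highest ratio were both knock-in libraries and the 3 wild-type ratios lay between them. On the log2 scale the ratio averaged 3.03 ± 0.364 in knock-in and 2.91 ± 0.0814 in wild type (SD, n = 3 each), a difference of 0.13 that is smaller than the knock-in SD. Without knock-in replicate 3 the difference was -0.06. FPKM listed for the copies on nuclear chromosomes is not in these sums. With only the mRNAs without a copy, the log2 difference in ratio was 0.12 over all libraries.

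**Figure D5:**
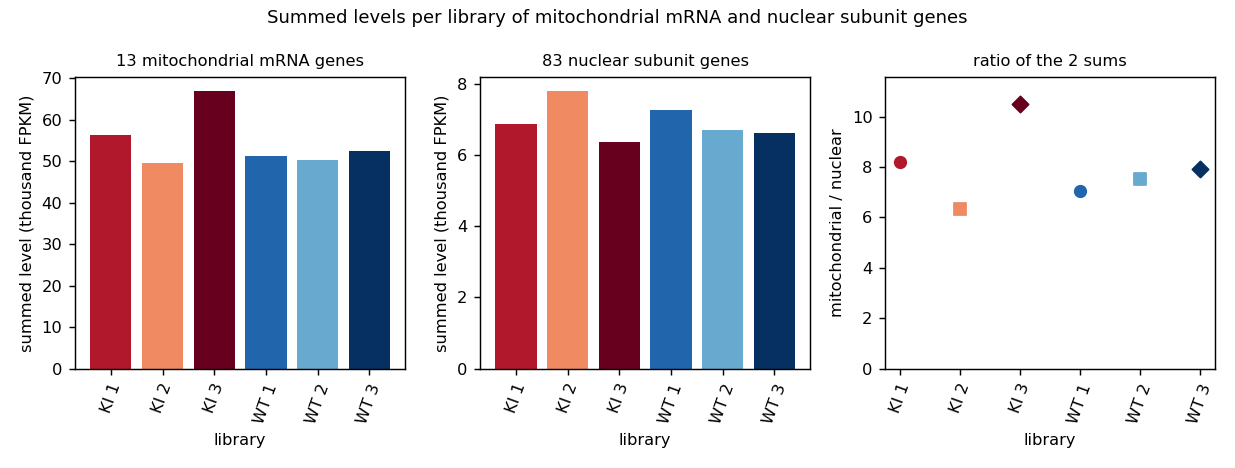
The bars give the summed FPKM of the 13 mitochondrial mRNA genes and of the 83 nuclear subunit genes in each knock-in (KI) and wild-type (WT) library, and the points their ratio. The ratio ran from 6.35 to 10.5 over the knock-in libraries and from 7.07 to 7.91 over the wild-type libraries.

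By complex, the mitochondrial to nuclear ratio in complex I was 8.21, 5.95 and 10.2 in knock-in and 6.73, 7.39 and 7.68 in wild type. In complex III it was 11.5, 8.70 and 12.7 in knock-in and 10.2, 10.97 and 11.3 in wild type. In complex IV it was 10.7, 8.95 and 14.4 in knock-in and 9.64, 10.01 and 10.8 in wild type. In all 3 complexes knock-in replicate 2 had the lowest and knock-in replicate 3 the highest ratio. Complex V had the lowest ratios and the widest spread, at 2.42, 1.68 and 4.85 in knock-in and at 1.83, 2.04 and 2.43 in wild type. All these ratios use only the FPKM listed for the mt- genes and leave out their copies. Gm10925, the copy of mt-Atp6, was listed at 4.80 to 5.76 times its level. The size and the order of the ratios by complex are therefore uncertain. The log2 differences in ratio were 0.13 for complex I, 0.0007 for complex III, 0.13 for complex IV and 0.37 for complex V, each smaller than the knock-in SD of 0.395, 0.281, 0.346 and 0.776 in the same order.

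FPKM is scaled within each library, so levels of different classes are not independent. All 37 mt- genes held 20.5%, 18.0% and 23.2% of all FPKM in knock-in and 18.6%, 18.7% and 19.4% in wild type. With libraries scaled without the mt- genes the mitochondrial median was 0.15 and the nuclear median 0.02. That scaling keeps the copies on nuclear chromosomes. With the copies left out too, an alternative chosen after seeing the data, the medians were 0.17 and 0.04. Cytosolic ribosomal protein genes, which are not mitochondrial, followed the nuclear subunits across libraries, with medians of -0.05, 0.19 and -0.13 in knock-in and 0.10, -0.05 and -0.05 in wild type, and knock-in replicate 2 was the highest library for 65 of 77. Other tissue markers moved between the same libraries. Of the 12 cortical excitatory neuron markers 8 were tested and all 8 averaged higher in knock-in, all but Mef2c through replicates 1 and 2. Mef2c was at 3.12, 2.15 and 2.65 FPKM in knock-in and at 2.46, 2.24 and 2.73 FPKM in wild type. With the mean of these 8 markers given above as a covariate the nuclear median was -0.05 and the mitochondrial median 0.28, with 0 members called. All 5 oligodendrocyte markers averaged lower in knock-in, 3 of them at an unadjusted p under 0.05 in limma, and Mbp was at 452, 507 and 368 FPKM in knock-in and at 565, 564 and 500 FPKM in wild type. All 5 oligodendrocyte, all 5 astrocyte and all 5 blood markers were lowest in knock-in replicate 3, where the mitochondrial mRNAs were highest. Of all genes tested 32.0% were lowest in that library. The 5 microglia markers went both ways there, with 3 lowest and 2 highest. In the same library 9 of 11 striatal projection neuron markers were highest, beside 17.6% of all genes tested. The summed level of these 11 was 2770, 2918 and 3070 FPKM in knock-in and 2900, 2852 and 2776 FPKM in wild type. Hbb-bs, a beta-globin, was at 344, 392 and 199 FPKM in knock-in and at 367, 385 and 258 FPKM in wild type. The part of these markers in the respiratory chain levels was not tested beyond that covariate.

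Promoters were read for the nuclear subunits because so many of them were highest in the same library. RefSeq promoter windows on GRCm38.p6, 250 bases before to 50 after the start, matched 68 of the 83. The NRF1 motif, GCGCATG followed directly by CGC and the same on both strands, was in 5 of them, or 7.35%, namely Atp5g2, Atp5k, Cox6a1, Ndufa11 and Uqcrc1, and in 1.07% of all 27025 genes with a window. Its shorter part GCGCATG or CATGCGC, which every full motif also holds and which covers both strands, was in 14, or 20.6%, and in 4.41% of all genes. The ETS motif CCGGAAG or CTTCCGG, read by the factor GABP, was in 16, or 23.5%, and in 9.93% of all genes. A match is a description of the letters and no binding was measured. The 27025 genes include genes not tested here, and matches were not compared with the library pattern. Cox6a1, a complex IV subunit, is shown because it holds both motifs, at chr5:115348909-115349208 on the minus strand, and Cycs because it holds only the short part, at chr6:50566520-50566819 on the minus strand. Both read 5′ to 3′ in the direction of the gene with the motifs in capitals.
Cox6a1: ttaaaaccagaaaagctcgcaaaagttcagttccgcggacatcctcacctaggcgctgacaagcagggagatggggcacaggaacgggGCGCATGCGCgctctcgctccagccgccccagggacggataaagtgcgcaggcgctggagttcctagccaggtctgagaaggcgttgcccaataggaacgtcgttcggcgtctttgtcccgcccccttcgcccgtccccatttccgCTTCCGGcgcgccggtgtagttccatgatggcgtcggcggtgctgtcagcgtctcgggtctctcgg
Cycs: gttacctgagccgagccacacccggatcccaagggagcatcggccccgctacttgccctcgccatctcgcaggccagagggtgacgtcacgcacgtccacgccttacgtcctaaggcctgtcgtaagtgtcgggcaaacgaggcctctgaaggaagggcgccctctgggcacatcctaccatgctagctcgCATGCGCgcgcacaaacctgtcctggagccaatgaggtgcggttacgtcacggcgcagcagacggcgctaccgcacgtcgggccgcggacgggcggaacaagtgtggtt

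Of these, Cox6a1 was at 468, 511 and 390 FPKM in knock-in and at 489, 439 and 422 FPKM in wild type, with knock-in replicate 2 highest and knock-in replicate 3 lowest. Cycs had the same highest library but not the same lowest, which was wild-type replicate 3.

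Genes that make and handle mitochondrial RNA and DNA showed 0 called members. Of 14 tested genes for mitochondrial DNA replication and transcription, 6 lay above 0, with a median of -0.02, and 0 had an unadjusted p under 0.05 by limma. Tfam, which packages and transcribes mitochondrial DNA, was at 5.01, 5.56 and 5.72 FPKM in knock-in and 6.26, 4.99 and 4.97 FPKM in wild type. Of 17 genes for mitochondrial RNA processing and decay, 11 lay above 0. Without overlap 2 were higher and 0 lower, beside 2.92% and 6.58% of all genes tested. Grsf1 and Elac2 are named for the smallest p of this list. Grsf1, which organizes mitochondrial RNA granules, was at 24.8, 26.5 and 26.9 FPKM in knock-in and at 23.4, 22.8 and 23.2 FPKM in wild type, without overlap, with a log2 difference of 0.16 (limma unadjusted p = 0.021, adjusted p = 0.997). Elac2, the nuclease that frees the 3′ ends of tRNAs from the precursor, was at 8.35, 7.72 and 7.68 FPKM in knock-in and at 10.3, 9.76 and 7.95 FPKM in wild type, overlapping, with a log2 difference of -0.20 (limma unadjusted p = 0.062, adjusted p = 0.997).

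Among 37 tested assembly factors of complex IV and other complexes, 24 lay above 0. Coa6, which delivers copper to complex IV, was at 14.3, 15.8 and 14.2 FPKM in knock-in and at 12.9, 11.9 and 12.7 FPKM in wild type, without overlap, with a log2 difference of 0.22 (limma unadjusted p = 0.011, adjusted p = 0.997). Uqcc1, a complex III assembly factor, was at 3.15, 3.76 and 4.40 FPKM in knock-in and at 4.60, 4.28 and 5.21 FPKM in wild type, overlapping, with a log2 difference of -0.26 (limma unadjusted p = 0.047, adjusted p = 0.997). Of 79 mitochondrial ribosomal protein genes 55 lay above 0 with a median of 0.03, and knock-in replicate 2 was the highest library for 51. Mrpl27 had 0 overlap between genotypes, at 28.7 ± 2.72 FPKM in knock-in and 23.5 ± 2.18 FPKM in wild type. In the tricarboxylic acid cycle 9 of 16 genes lay above 0, and Dld, a shared subunit of its dehydrogenases, was at 25.1 ± 1.95 FPKM in knock-in and 22.7 ± 0.0327 FPKM in wild type, higher in knock-in without overlap. Ogdh, a subunit of the oxoglutarate dehydrogenase, was lower in knock-in without overlap, at 56.5 ± 0.980 FPKM in knock-in and 59.03 ± 1.41 FPKM in wild type. In glycolysis 11 of 16 lay above 0, and Pfkp, a phosphofructokinase, was at 23.0 ± 1.21 FPKM in knock-in and 20.7 ± 0.644 FPKM in wild type (SD, n = 3 each in these sentences). The adjusted p in limma was 0.997 for Mrpl27, Dld, Ogdh and Pfkp. Genes in this paragraph are named for the smallest p of their lists. Higher without overlap were 2 of 37 assembly factors, 2 of 79 ribosomal protein, 1 of 16 cycle and 1 of 16 glycolysis genes. The share over all genes tested was 2.92%. Lower without overlap were 0, 0, 1 and 0 in the same order, beside 6.58%.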

How the data were processed

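The deposited table gives FPKM per gene and library; its columns were matched to samples by codes in the labels. Per the submitters' processing notes the tools were HISAT2, StringTie, SAMtools and FastQC, without versions. Build, annotation and strand setting: not given in the sources used here. On the scale used, log2(FPKM + 1), changes of low genes are understated. Genes averaging 1 FPKM or more were compared between genotypes with limma 3.58.1 in R 4.3.3, trended and robust, two-sided, with adjustment over all 14156. A log2 difference is knock-in minus wild-type. The fit was run on simulated data with planted changes and noise independent between genes. Libraries that shift many genes together were not simulated, so that run does not measure the power to call members. Positions and transcripts are from GENCODE M21 (22972 identifiers matched; 129 of 130 members had the same symbol), and promoters from RefSeq. Shared sequence was counted in 50-base windows. Members and lists were chosen with earlier results of these data known. Genes named were the mitochondrial mRNAs and rRNAs, core subunits, isoforms, the 3 smallest p per nuclear complex, the highest and lowest members, and up to 2 per other list; mitochondrial tRNAs, Ndufaf1, the 2 promoters, Tfam and copies were named after their values were seen. One core subunit is not reported here.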

Additional observations from a re-analysis of the deposited data

How the results depend on the processing

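The number of members called was 0 under every alternative, which were pseudocounts, filters, scalings, a cortical marker covariate, plain limma, the replicate block, summed copies and leaving out each library. At an unadjusted p under 0.05 the count ran from 2 to 17, with 17 under the cortical covariate and 15 without knock-in replicate 2. Leaving out each library in turn, the mitochondrial mRNA median ran from 0.037 to 0.27, the nuclear subunit median from -0.047 to 0.089 and the log2 ratio from -0.056 to 0.31. The nuclear median turned to -0.049 with the cortical covariate. Between libraries of the same replicate number the correlations of deviations were -0.011, -0.074 and 0.186. Those between libraries of different numbers ran from -0.18 to 0.21. So few libraries cannot settle whether the numbers pair samples. With the replicate block 0 members were called, 9 had an unadjusted p under 0.05, and the medians were 0.162 and 0.0314.

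Signs of single nuclear genes were not stable. Of 81 nuclear subunits 62 lay above 0, against 21 with the cortical covariate and 19 without knock-in replicate 2, and 36 of the 50 nuclear and 6 of the 22 mitochondrial genes followed by name changed sign under at least 1 alternative. Among those with a log2 difference followed in detail, with the cortical covariate Atp5d turned to -0.073, Cox7c to -0.035, Uqcr11 to -0.066 and Cox4i1 to -0.066. With quantile normalization Uqcr11 turned to -0.0063, mt-Rnr1 to -0.14, mt-Rnr2 to -0.050, mt-Co3 to -0.054 and mt-Nd4l to -0.014. Sdhb turned to 0.017 under median-of-ratios scaling and to 0.0050 when scaled without mt- genes and their copies, an alternative chosen after seeing the data. Leaving out each library in turn, the log2 difference, among other genes, ran from -0.013 to 0.20 for Atp5d, from -0.086 to 0.054 for Sdhb, from -0.081 to 0.13 for Uqcr11 and from -0.0092 to 0.096 for Uqcrfs1. It ran from -0.093 to 0.040 for Sdhc, from -0.00076 to 0.21 for mt-Nd4, from -0.057 to 0.17 for mt-Nd5 and from -0.059 to 0.27 for mt-Nd4l. The cause was not tested. Depth is unknown from FPKM, so the precision rests on 3 libraries per genotype.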
